A study of Mus musculus with 7 samples.

Results

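The TGF-beta, BMP and activin pathway was followed here in pancreatic islets of mice through 50 genes. They were taken by symbol: the TGF-beta ligands (Tgfb1 to Tgfb3), activin and inhibin subunits (Inh), bone morphogenetic proteins (Bmp), growth and differentiation factors (Gdf), their receptors (Tgfbr, Bmpr, Acvr), the SMAD proteins and the antagonists gremlin (Grem) and follistatin (Fst). The platform's annotation held 51 such symbols, and 50 of them, out of 22180 genes in all, had a probe set of a single gene. Gdf1 shared its probe set with Cers1 and was not tested. By symbol alone the set also takes in Bmp1, a procollagen protease, and Bmp2k, a protein kinase, which are not ligands. Expression was measured on whole-transcript arrays. Islets of Gata6 flox/flox mice without Cre (control, 3 arrays) were compared with islets of Gata6 flox/flox;Pdx1-Cre mice (labelled Gata6 KO, 4 arrays). Each array carried islets pooled from 3 mice aged 2 months, isolated with collagenase, so the replicates were separate pools. All groups shared the floxed alleles and the Cre was present in the second group alone, so an effect of Cre itself cannot be told apart from that of the Gata6 deletion. Pdx1-Cre is active in the pancreatic epithelium, from which endocrine, acinar and ductal cells derive, and not in the mesenchymal, endothelial or blood cells that an islet preparation also holds.

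As background, ligands of this family are secreted dimers that bring together type I and type II receptor kinases at the cell surface. The type II receptor phosphorylates the type I receptor, which phosphorylates a receptor-regulated SMAD. TGF-betas and activins act mainly through SMAD2 and SMAD3, BMPs through SMAD1, SMAD5 and SMAD9, and each of these enters the nucleus with SMAD4. SMAD6 and SMAD7 inhibit the pathway, and gremlin, noggin and follistatin trap ligands outside the cell. In the pancreas the pathway takes part in endocrine differentiation, insulin secretion and the deposition of collagen by stellate cells.

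The arrays gave log2 signals, and the targeted gene was examined first. Gata6 measured 4.60, 4.80 and 4.83 on control arrays 1, 2 and 3, and 5.41, 5.35, 5.34 and 5.01 on arrays 1 to 4 labelled Gata6 KO. The signal was thus higher, not lower, on every array of the second group, without passing the test (difference 0.54, or 0.37 minus the median difference of all genes, SE 0.20, limma's Benjamini-Hochberg adjusted p = 0.0622, exact two-sided permutation p = 0.0571). After each array was centred on its median the difference was 0.29 (adjusted p = 0.39). The floxed exons and the place of the probes are not given in the sources used here, and a probe set outside the deleted part checks nothing. All directions below are therefore those of the labels. The Gata6 signal did not bear these labels out and, with the probe positions unknown, cannot decide on them.

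The preparations also differed in their cell type markers. Of 21 measured islet endocrine genes 20 had fallen in the group labelled Gata6 KO and 0 had risen, and their mean log2 signal lay between 7.91 and 8.42 on the controls and between 4.75 and 6.30 on the others. Beside these counts, 17.4% of all genes were higher and 7.36% lower. The falls with the smallest p were those of the endocrine transcription factors Rfx6 (-2.84, SE 0.22) and Pax6 (-2.51, SE 0.22), and the fall of largest size was that of the hormone gene Ppy (-4.73, SE 0.69), each minus the median difference of all genes. Of the other lists, 11 of 16 acinar genes rose (led by Amy2b, which has near-identical copies, and Spink1), as did 9 of 16 mesenchymal (Col6a2, Col6a1), 6 of 14 myeloid (Itgam, Aif1) and 6 of 12 lymphoid genes (Ltb, Cd5), with 0 falls in each. Ductal genes split into 3 higher (among them Muc1 and Car2) and 1 lower of 10. Of 14 endothelial genes 4 fell, among them Esm1 and Flt1, and 1, Egfl7, rose. After centring the rises were 9 acinar, 6 mesenchymal, 5 myeloid, 4 lymphoid and 1 ductal, and the endothelial falls 7, while repeated quantile normalization gave 7 acinar rises and otherwise these counts. Of all genes 7.85% were higher and 12.8% lower after centring, and 9.1% and 13% after repeated quantile normalization. The acinar mean ran from 9.69 to 9.85 on the controls and from 10.67 to 10.80 on the others, the ductal from 4.13 to 4.67 and from 4.70 to 4.94, the mesenchymal from 3.14 to 3.89 and from 3.68 to 5.08. Corresponding ranges were 4.12 to 4.54 and 3.63 to 4.11 for endothelial, 2.50 to 2.75 and 2.96 to 3.99 for myeloid, and 1.79 to 1.81 and 2.56 to 3.14 for lymphoid genes. No gene of these lists can be called absent on this scale, since the files hold no detection calls. In such bulk samples fewer cells of a type and less RNA per cell cannot be told apart. Xist, expressed from the inactive X chromosome of females, was low on control array 3 (1.34) and on array 3 labelled Gata6 KO (2.15), and between 5.02 and 5.60 on the other 5 arrays.

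**Figure D1:**
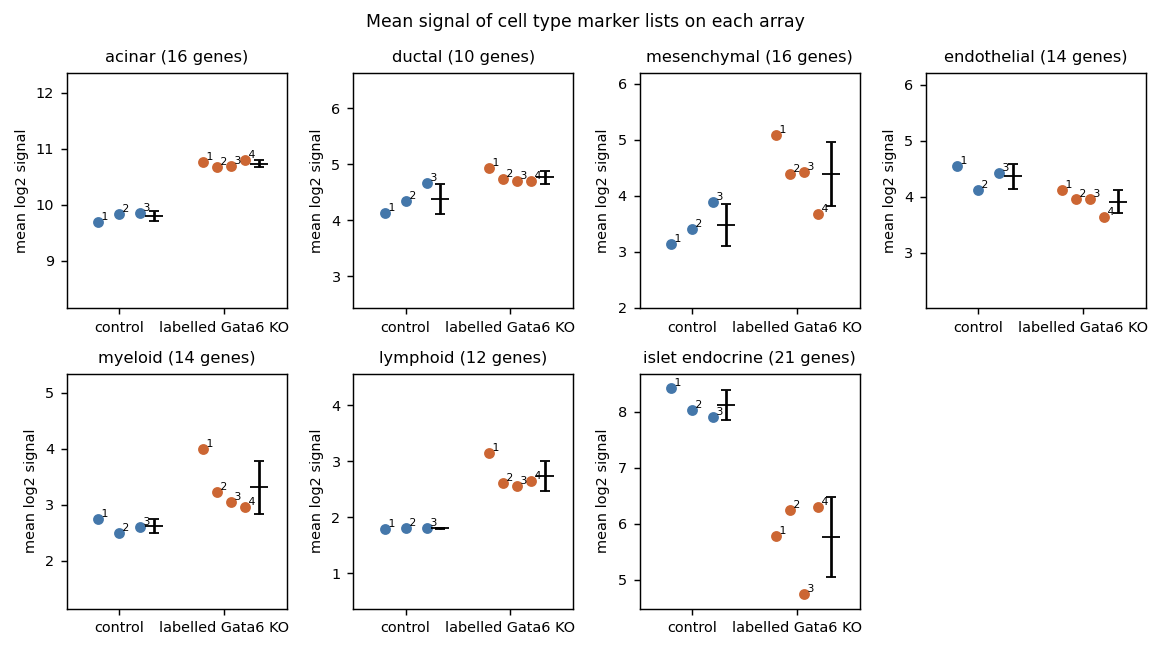
Mean log2 signal of each cell type marker list on each array (points, numbered by replicate), with mean and SD beside them. Every panel spans the same range of log2 units. The endocrine mean lay at or below 6.30 on the 4 arrays labelled Gata6 KO and at or above 7.91 on the controls. The acinar and lymphoid means of every control lay below those of all 4 arrays of the second group. The highest control and the lowest other array nearly met for ductal (4.67 and 4.70) and were close for myeloid genes (2.75 and 2.96). The values are not centred, and array medians were 1.72 to 1.78 on the controls and 1.89 to 2.11 on the others.

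Of the 50 pathway genes 9 passed limma's test at a p under 0.05 after Benjamini-Hochberg adjustment over all genes, 8 higher and 1 lower on the arrays labelled Gata6 KO. Over all 22180 genes 24.7% passed, 17.4% higher and 7.36% lower, beside 18% of the pathway genes, and the difference between these shares was not tested. An unadjusted p under 0.05 was reached by 15 of the 50, beside 37.3% of all genes. The higher genes were the BMP antagonist gene Grem1, the ligands Tgfb3 and Bmp8a, the type I receptors Tgfbr1, Bmpr1a, Acvr1c and Acvrl1, and the inhibitory SMAD gene Smad6, and the lower gene was the ligand Bmp6. In 16 of the 50 genes no control value reached into the range of the other group, beside 34.3% of all genes. Over all genes the log2 difference had a median of 0.17, so differences below are given minus this shift ("relative"), while the SE and adjusted p are those of the unshifted difference. On this relative scale the 50 genes had a median of -0.10 and ran from -0.80 to 1.37. How many were higher and lower depended on how the arrays were scaled. After each array was centred on its median 7 of the 50 passed, 4 higher and 3 lower, beside 7.85% higher and 12.8% lower of all genes. After quantile normalization was repeated 9 passed, 5 higher and 4 lower (9.1% and 13% of all genes). Grem1, Tgfb3, Tgfbr1 and Smad6 passed under both scalings and under each of the 18 alternative fits tried. Without control array 1 the count fell to 5, all higher.

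**Figure D2:**
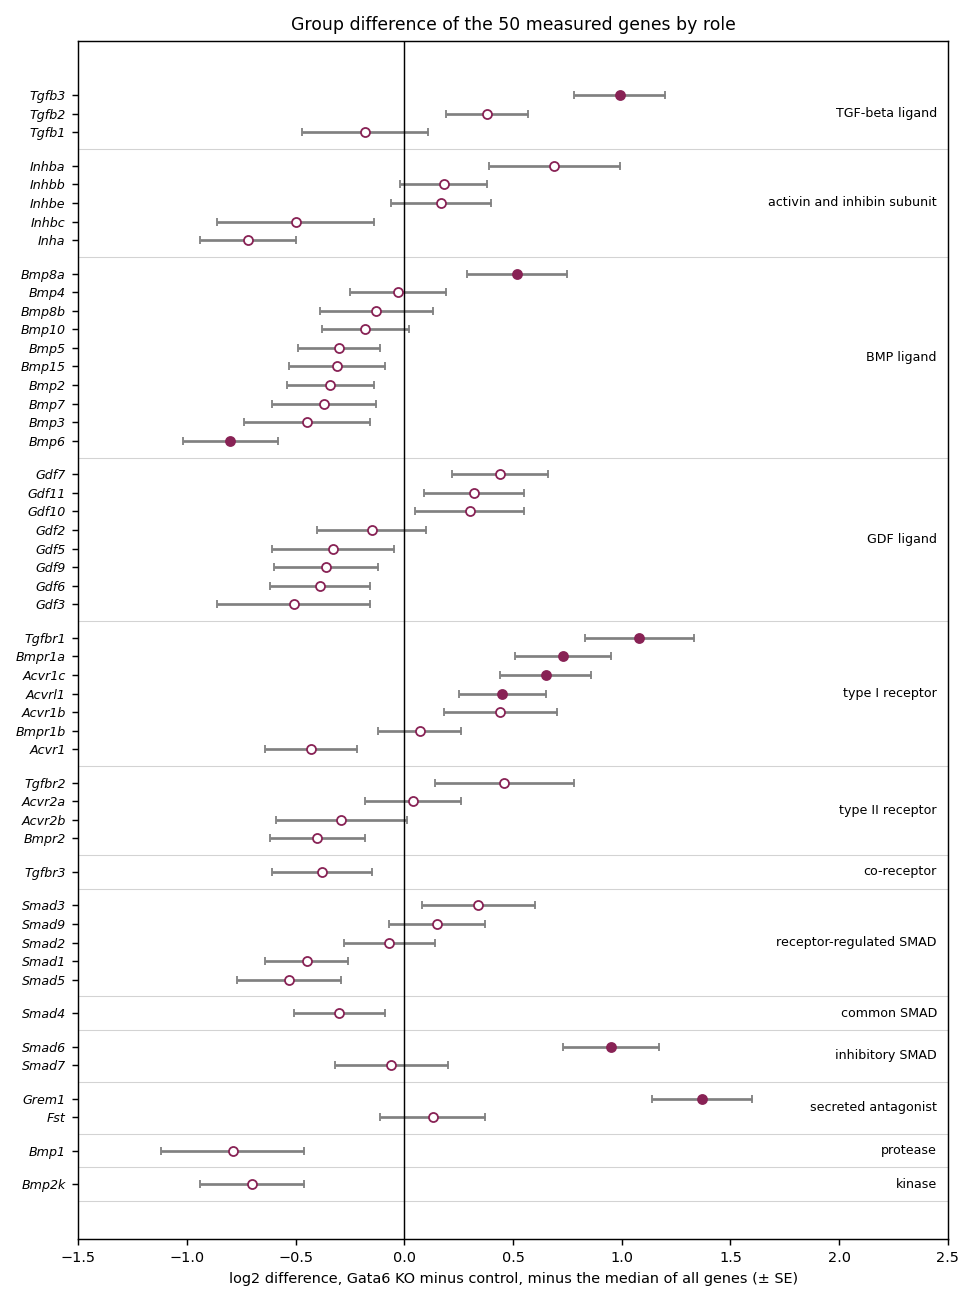
Log2 difference (labelled Gata6 KO minus control, minus the median difference of all genes) of the 50 pathway genes, grouped by role. Bars are ± SE from limma and filled points passed an adjusted p of 0.05. The 9 filled points are 8 genes higher and 1 lower, with Grem1 (1.37) at the top and Bmp6 (-0.80) at the bottom of the range. After centring 4 genes passed as higher and 3 as lower.

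Among the 3 TGF-beta ligands, which drive matrix production and restrain growth in many cell types, Tgfb3 rose and the other genes did not pass. Tgfb3 measured 3.39, 3.09 and 3.01 on the controls and 4.44, 4.40, 4.35 and 4.07 on the arrays labelled Gata6 KO. Every array of the second group lay above every control, and the relative change was 0.99 (SE 0.21, adjusted p = 0.00125), or 1.98-fold. Tgfb2 measured 1.71, 1.96 and 1.71 and then 2.30, 2.20, 2.44 and 2.41. Its groups also stood apart, by a smaller step that missed the threshold (relative difference 0.38, SE 0.19, adjusted p = 0.055). Tgfb2 passed as higher without the 40% of genes with the lowest mean (adjusted p = 0.0423) and without limma's variance trend (adjusted p = 0.0373). It also passed with the mean of a gene's probe sets (adjusted p = 0.0499), but after neither other scaling. Its control mean, 1.79, was low, close to the array medians of the controls (1.72 to 1.78). Tgfb1, the form most studied in fibrosis, measured 3.14, 3.78 and 3.20 on the controls and 4.20, 3.04, 3.03 and 3.17 on the others. Array 1 labelled Gata6 KO was the highest of all, and the other 3 of its group lay around the lower controls (relative difference -0.18, SE 0.29, adjusted p = 0.978).

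None of the 5 activin and inhibin subunit genes passed. The groups of 3 of them did not overlap, beside 34.3% of all genes, and 2 had an unadjusted p under 0.05, beside 37.3% of all genes. Inhba encodes the subunit of activin A, and it measured 1.99, 1.56 and 2.12 on the controls and 2.48, 2.16, 3.61 and 2.72 on the others. All 4 values lay above the controls, one of them, on array 3, well above the rest (relative difference 0.69, SE 0.30, adjusted p = 0.0535). It passed in 5 of the 18 alternative fits, among them those with the low and high Xist arrays as a block (adjusted p = 0.0166) and without array 2 labelled Gata6 KO (adjusted p = 0.0256). Without array 3, the highest, its unshifted difference went from 0.85 to 0.56 (adjusted p = 0.118), and without arrays 3 and 4 to 0.43 (adjusted p = 0.236). Inha, the subunit that turns an activin into an inhibin, pointed the other way, with 2.92, 3.16 and 2.86 on the controls and 2.12, 2.25, 2.78 and 2.55 on the others. Its relative difference was -0.72 (SE 0.22, adjusted p = 0.0857), and it passed as lower after centring (adjusted p = 0.0165) and after repeated quantile normalization (adjusted p = 0.0137). Inhbb, the subunit of activin B, measured 2.56, 2.51 and 2.62 and then 2.86, 3.11, 2.79 and 2.89 (relative difference 0.18, SE 0.20, adjusted p = 0.221). Its groups stood apart, by a step of which the shift shared by all genes made up much. Inhbc and Inhbe differed by -0.50 (SE 0.36) and 0.17 (SE 0.23), within the spread of the arrays.

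Of the 10 BMP ligand genes Bmp8a rose and Bmp6 fell. Bmp8a, best known from germ cells and brown fat, measured 1.80, 1.43 and 2.14 on the controls and 2.62, 2.53, 2.18 and 2.60 on the others. The highest control and the lowest array labelled Gata6 KO nearly met (relative change 0.52, SE 0.23, adjusted p = 0.0384, exact permutation p = 0.0571). The control mean of Bmp8a, 1.79, was low, close to the array medians of the controls (1.72 to 1.78). The near-identical gene Bmp8b, whose transcript may share probes, measured between 1.47 and 2.48 on the controls and between 1.61 and 2.37 on the others. Bmp6, a BMP that controls hepcidin and iron balance, measured 2.41, 2.42 and 2.53 on the controls and 1.83, 1.80, 2.22 and 1.46 on the others. Every value of the second group was lower, and the relative change was -0.80 (SE 0.22, adjusted p = 0.0476), or 1.74-fold lower. Both calls were close to the threshold: that of Bmp8a was lost in 8 and that of Bmp6 in 9 of 18 alternative fits. Bmp6 was lost in 6 of the 7 fits that left out an array (all but that without array 3 labelled Gata6 KO) on the 5 arrays with high Xist, and with the Xist arrays (adjusted p = 0.0521) or the replicate number (adjusted p = 0.0955) as a block (adjusted p up to 0.131 over all alternatives), while centring made it clearer (adjusted p = 0.0121). Bmp8a was lost without control array 1 or 2, without array 1, 2 or 4 labelled Gata6 KO, with the replicate block (adjusted p = 0.0687), and after both other scalings (adjusted p up to 0.202).

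The remaining BMP ligands did not pass. Bmp7, a BMP of kidney and brown fat development, measured 5.40, 5.84 and 6.43 on the controls and 5.71, 5.60, 5.49 and 5.96 on the others, so that all 4 values of the second group lay within the control range (relative difference -0.37, SE 0.24, adjusted p = 0.574). Bmp4, which patterns mesoderm and has been linked to insulin secretion, measured 2.26, 2.28 and 2.11 and then 2.48, 1.88, 2.65 and 2.39 (relative difference -0.03, SE 0.22, adjusted p = 0.709). The second group here straddled the first. Bmp3, a BMP that antagonises others in bone, lay between 4.93 and 5.21 on the controls and between 4.25 and 5.58 on the others. Bmp2, Bmp5, Bmp10 and Bmp15 had relative differences from -0.34 to -0.18, and together with Bmp8b were among the 11 pathway genes in the 40% of genes with the lowest mean signal. So low a signal lies near background, where a difference in transcript would be compressed.

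None of the 8 GDF genes passed. Gdf7, a BMP-like ligand of the nervous system, came closest, with 2.84, 2.47 and 2.85 on the controls and 3.33, 3.24, 3.64 and 3.10 on the others. These groups did not overlap (relative difference 0.44, SE 0.22, adjusted p = 0.0554). Gdf7 passed as higher in some alternative fits, though after neither other scaling. Among them were those with array weights (adjusted p = 0.0344), with the Xist arrays as a block (adjusted p = 0.0419) and without array 4 labelled Gata6 KO (adjusted p = 0.0368). Gdf11, an activin-like ligand that limits endocrine progenitor number in the embryonic pancreas, measured 2.40, 2.56 and 2.01 and then 2.62, 2.59, 3.16 and 2.87. All 4 values were above the controls, the lowest by a margin smaller than the spread of either group (relative difference 0.32, SE 0.23, adjusted p = 0.136). The other GDF genes had relative differences from -0.51 (Gdf3, SE 0.35) to 0.30 (Gdf10, SE 0.25), and 4 of the 8 were among the genes of lowest signal.

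**Figure D3:**
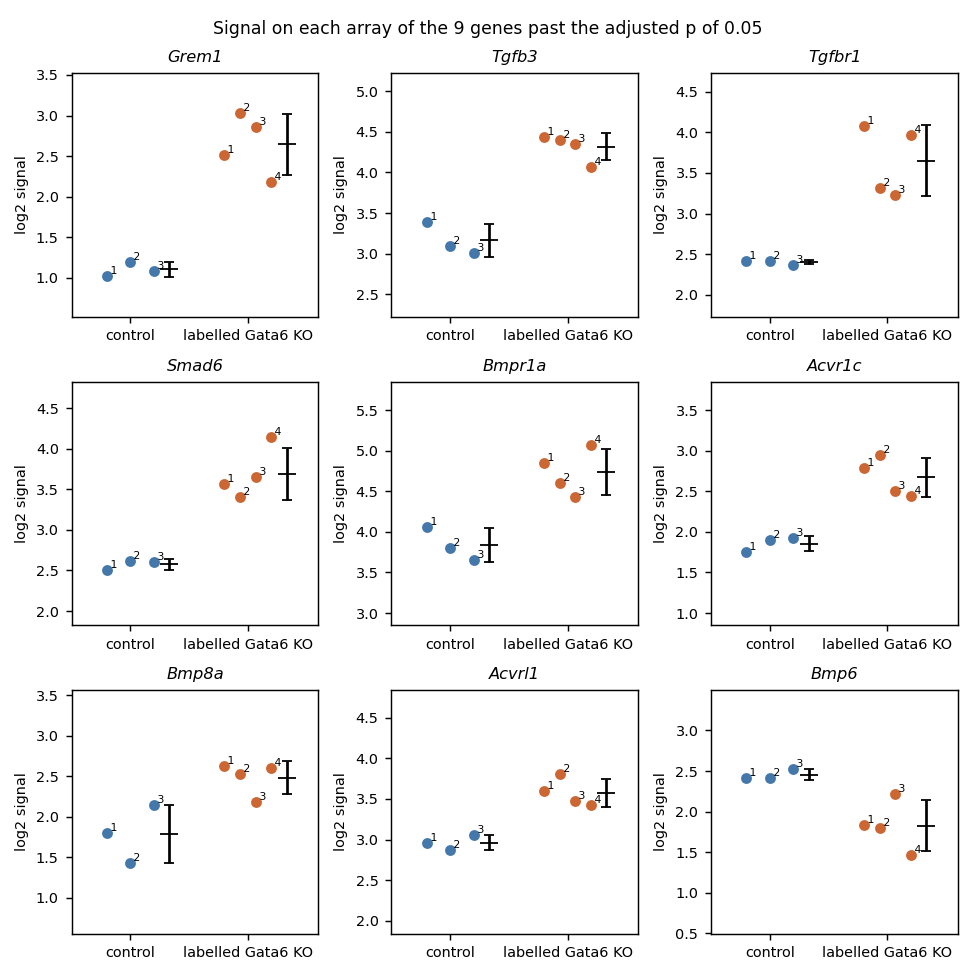
Log2 signal on each array (points, numbered by replicate) of the 9 pathway genes past the adjusted p of 0.05, with mean and SD beside each group. Every panel spans the same range of log2 units. The groups do not overlap in any panel, and the gap is narrowest for Bmp8a, where control array 3 (2.14) lies just under array 3 labelled Gata6 KO (2.18).

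Of the 7 type I receptors, the kinases that select which SMADs are phosphorylated, 4 rose and 0 fell, beside 17.4% of all genes higher and 7.36% lower. The count rests on the scaling, since 1 of them (Tgfbr1) passed after centring and 2 (Tgfbr1 and Bmpr1a) after repeated quantile normalization. Tgfbr1 (ALK5), the TGF-beta type I receptor, measured 2.42, 2.42 and 2.37 on the controls and 4.08, 3.32, 3.23 and 3.97 on the others. The controls lay close together (SD 0.03, n = 3) and every other array was well above them (relative change 1.08, SE 0.25, adjusted p = 0.00248, 2.11-fold). Bmpr1a (ALK3), a BMP receptor of beta cells and many other tissues, measured 4.06, 3.80 and 3.65 and then 4.85, 4.60, 4.43 and 5.07. It was higher on each of the 4 arrays (relative change 0.73, SE 0.22, adjusted p = 0.00911), and this call was lost only after centring (adjusted p = 0.0625) among the 18 alternatives. Acvr1c (ALK7), a receptor for activin and Nodal-type ligands known from islets and fat, measured 1.75, 1.90 and 1.92 on the controls and 2.79, 2.95, 2.51 and 2.44 on the others. Every array of the second group lay above every control (relative change 0.65, SE 0.21, adjusted p = 0.012), and 20 of 21 endocrine markers fell in the same comparison. The control mean of Acvr1c, 1.86, was low, close to the array medians of the controls (1.72 to 1.78). The Acvr1c call was lost after centring (adjusted p = 0.0794), after repeated quantile normalization (adjusted p = 0.088) and without control array 1 (the adjusted p over all alternatives ran from 0.00408 to 0.088). Acvrl1 (ALK1), the receptor of endothelial cells for the ligand encoded by Gdf2, measured 2.96, 2.87 and 3.06 and then 3.60, 3.81, 3.47 and 3.42. It was higher on every array of the second group by a small step (relative change 0.45, SE 0.20, adjusted p = 0.0399). Of 14 endothelial markers 1 rose, 4 fell and 9 did not pass, and their mean ran from 4.12 to 4.54 on the controls and from 3.63 to 4.11 on the others. The Acvrl1 call was lost in 8 of 18 alternatives. After centring the unshifted difference went from 0.61 to 0.37 (adjusted p = 0.25) and after repeated quantile normalization to 0.36 (adjusted p = 0.222). It was also lost on the 5 arrays with high Xist (adjusted p = 0.0891), without any 1 of the control arrays and without array 1 or 2 labelled Gata6 KO (adjusted p up to 0.135). What part the shift in cell types has in these receptor values was not tested.

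The 3 other type I receptors did not pass. Acvr1b (ALK4), the activin type I receptor, measured 2.71, 3.48 and 2.66 on the controls and 3.59, 3.93, 3.13 and 3.57 on the others. Control array 2 lay among the second group (relative difference 0.44, SE 0.26, adjusted p = 0.106), and without it Acvr1b passed as higher (adjusted p = 0.0454). Bmpr1b differed by 0.07 (SE 0.19) and Acvr1 (ALK2) by -0.43 (SE 0.21, adjusted p = 0.387).

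None of the 4 type II receptors passed, nor did any have an unadjusted p under 0.05. Bmpr2, the BMP type II receptor, measured 6.72, 6.0 and 6.52 on the controls and 6.39, 6.32, 5.99 and 6.04 on the others (relative difference -0.40, SE 0.22, adjusted p = 0.47). Its values overlapped, although it passed as lower after repeated quantile normalization (adjusted p = 0.0426). Tgfbr2, the partner of Tgfbr1 in the TGF-beta receptor, measured 3.02, 2.94 and 3.29 and then 4.57, 3.26, 4.03 and 2.98. Arrays 1 and 3 labelled Gata6 KO were high and arrays 2 and 4 lay at the control level, which gave an SD of 0.72 in that group against 0.18 in the controls (relative difference 0.46, SE 0.32, adjusted p = 0.172). Without array 4 labelled Gata6 KO Tgfbr2 passed as higher (adjusted p = 0.0454), and without array 1 its unshifted difference went from 0.63 to 0.34 (adjusted p = 0.392). It was 0.38 after centring (adjusted p = 0.46). On these 4 arrays the mesenchymal mean was 5.08, 4.39, 4.42 and 3.68. The activin type II receptor genes Acvr2a and Acvr2b differed by 0.04 (SE 0.22) and -0.29 (SE 0.30). Tgfbr3, the co-receptor betaglycan that presents TGF-beta and inhibin, differed by -0.38 (SE 0.23, adjusted p = 0.526).

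Among the 8 SMAD genes Smad6 alone passed. Smad6, an inhibitor of BMP receptor signalling that is itself induced by BMP, measured 2.50, 2.62 and 2.60 on the controls and 3.57, 3.40, 3.65 and 4.15 on the others. Controls and the other arrays were clearly apart, array 4 being the highest (relative change 0.95, SE 0.22, adjusted p = 0.00272, 1.93-fold). Smad7, the inhibitor that acts on TGF-beta as well as BMP receptors, measured 2.79, 2.92 and 3.00 and then 3.45, 2.54, 2.63 and 3.42. Arrays 1 and 4 labelled Gata6 KO lay above and arrays 2 and 3 below the controls (relative difference -0.06, SE 0.26, adjusted p = 0.798).

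The SMADs that carry the signal differed little. Smad4, the shared partner, measured 6.12, 6.08 and 6.38 on the controls and 6.40, 5.94, 5.69 and 6.21 on the others (relative difference -0.30, SE 0.21, adjusted p = 0.685). Smad2 measured 4.03, 3.79 and 3.81 and then 3.62, 4.02, 4.10 and 4.15 (relative difference -0.07, SE 0.21, adjusted p = 0.781). In both genes the groups overlapped. Smad3, the other TGF-beta and activin SMAD, measured 2.80, 3.84 and 3.44 on the controls and 3.71, 4.21, 3.65 and 3.89 on the others (relative difference 0.34, SE 0.26, adjusted p = 0.168). The BMP SMAD genes Smad1, Smad5 and Smad9 had relative differences of -0.45 (SE 0.19), -0.53 (SE 0.24) and 0.15 (SE 0.22). Only for Smad1, at 4.30 to 4.38 on the controls and 3.89 to 4.20 on the others, did the groups not overlap, with an adjusted p of 0.308.

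Grem1 showed the largest rise of the 50 genes. It encodes gremlin, which binds BMP2, BMP4 and BMP7 and in adult tissues is made mainly by fibroblasts and other mesenchymal cells. It measured 1.02, 1.20 and 1.09 on the controls and 2.51, 3.03, 2.86 and 2.18 on the others. The lowest array of the second group lay far above the control mean of 1.10 ± 0.09 (SD, n = 3), and the relative change was 1.37 (SE 0.23, adjusted p = 3.26e-04, 2.59-fold). The control signals lie near the background of these arrays, where fold changes are compressed. Of 16 mesenchymal markers 9 rose and 0 fell in the same comparison (6 and 0 after centring). Their mean was 3.14, 3.41 and 3.89 on the controls and 5.08, 4.39, 4.42 and 3.68 on the others, and their part in the Grem1 signal was not tested. Fst encodes follistatin, which neutralises activins, and measured 2.43, 2.23 and 2.23 on the controls and 1.97, 2.89, 2.78 and 2.74 on the others. Arrays 2 to 4 labelled Gata6 KO were above the controls and array 1 below them (relative difference 0.13, SE 0.24, adjusted p = 0.402).

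Neither Bmp1 nor Bmp2k passed. Bmp1, the protease that trims procollagens and the BMP antagonist chordin, measured 4.50, 4.71 and 3.60 on the controls and 3.45, 4.09, 2.89 and 4.18 on the others (relative difference -0.79, SE 0.33, adjusted p = 0.189). Array 3 was the lowest of each group, and these are the arrays with low Xist. With the low and high Xist arrays as a block Bmp1 passed as lower (adjusted p = 0.0376). Bmp2k measured 4.38, 3.77 and 4.10 and then 4.02, 3.34, 3.28 and 3.56 (relative difference -0.70, SE 0.24, adjusted p = 0.121), and it passed as lower after centring (adjusted p = 0.0474).

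GATA6 binds the core GATA and SMADs bind short palindromic or GC-rich elements, so the promoters of the 9 changed genes were searched for such letters. RefSeq promoters (assembly GRCm38.p6, 250 bases before to 50 after a transcript start) were at hand for 7 of the 9 genes and 35 of the 50. Searches on both strands covered the GATA hexamer AGATAA, its variant TGATAA, its variant AGATAG and its variant TGATAG, the SMAD palindrome GTCTAGAC, and GGCGCC, a GC-rich element bound by BMP SMADs. The 4 promoters below are those of changed genes with the largest rises that had an entry (Grem1, Tgfbr1, Smad6) and of the gene with a GATA match (Bmp8a), with matches in capitals. They lie at chr2:113758599-113758898 (minus strand), chr4:47352972-47353271 (plus strand, the upstream of the 2 listed starts of Tgfbr1), chr9:64022010-64022309 (minus strand) and chr4:123343203-123343502 (minus strand).
Grem1: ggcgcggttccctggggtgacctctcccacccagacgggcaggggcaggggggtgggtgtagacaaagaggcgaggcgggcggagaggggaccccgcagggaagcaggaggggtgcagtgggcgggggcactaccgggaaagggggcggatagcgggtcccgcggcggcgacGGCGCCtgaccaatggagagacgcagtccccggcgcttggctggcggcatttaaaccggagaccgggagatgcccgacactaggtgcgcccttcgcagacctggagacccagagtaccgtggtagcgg
Tgfbr1: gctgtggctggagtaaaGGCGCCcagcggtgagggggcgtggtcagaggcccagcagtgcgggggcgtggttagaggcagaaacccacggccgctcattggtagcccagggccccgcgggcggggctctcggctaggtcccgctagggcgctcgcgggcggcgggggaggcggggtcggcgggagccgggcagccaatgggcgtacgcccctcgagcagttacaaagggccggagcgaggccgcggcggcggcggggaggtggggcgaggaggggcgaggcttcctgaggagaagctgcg
Smad6: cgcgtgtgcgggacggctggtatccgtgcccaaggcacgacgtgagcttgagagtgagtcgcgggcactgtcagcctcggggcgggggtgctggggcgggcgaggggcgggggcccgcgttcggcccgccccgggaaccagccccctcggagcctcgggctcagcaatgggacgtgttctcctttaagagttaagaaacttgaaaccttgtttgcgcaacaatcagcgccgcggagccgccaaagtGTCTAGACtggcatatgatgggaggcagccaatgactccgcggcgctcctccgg
Bmp8a: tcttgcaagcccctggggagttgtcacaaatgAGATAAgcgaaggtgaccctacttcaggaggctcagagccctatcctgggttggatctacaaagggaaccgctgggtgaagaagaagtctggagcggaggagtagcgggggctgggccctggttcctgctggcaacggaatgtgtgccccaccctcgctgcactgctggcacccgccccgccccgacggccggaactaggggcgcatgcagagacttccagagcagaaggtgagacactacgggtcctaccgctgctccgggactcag
The SMAD palindrome starts 4 bases before the Smad6 start site, and it occurs in 0.213% of all 32851 promoters of this length and in 1 of the 41 promoters of the pathway genes. GGCGCC starts 78 bases before the start of Grem1, 233 before that of Tgfbr1 and 198 before that of Bmpr1a, and occurs in 11.9% of all promoters and in 10 of the 41. These windows are rich in G and C (70.7% for Grem1, 74.7% for Tgfbr1), in which such letters are frequent. A GATA hexamer was found in Bmp8a alone among the 7 changed genes with a promoter, 218 bases before its start, beside 29.8% of all promoters and 6 of the 41. A match of letters is a description and shows no binding.

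Other genes of the pathway were taken from 4 lists of regulators and targets, and 36 of 104 measured genes passed, 25 higher and 11 lower, beside the 17.4% and 7.36% of all genes given above. After centring 14 were higher and 15 lower (7.85% and 12.8% of all genes), and after repeated quantile normalization 15 and 17 (9.1% and 13% of all genes). Of the 36 genes 17 passed in every alternative fit that tested them. Without control array 1 the count was 22. Bambi, Skil, Ltbp2 and Thbs1 stand in 2 lists each.

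**Figure D4:**
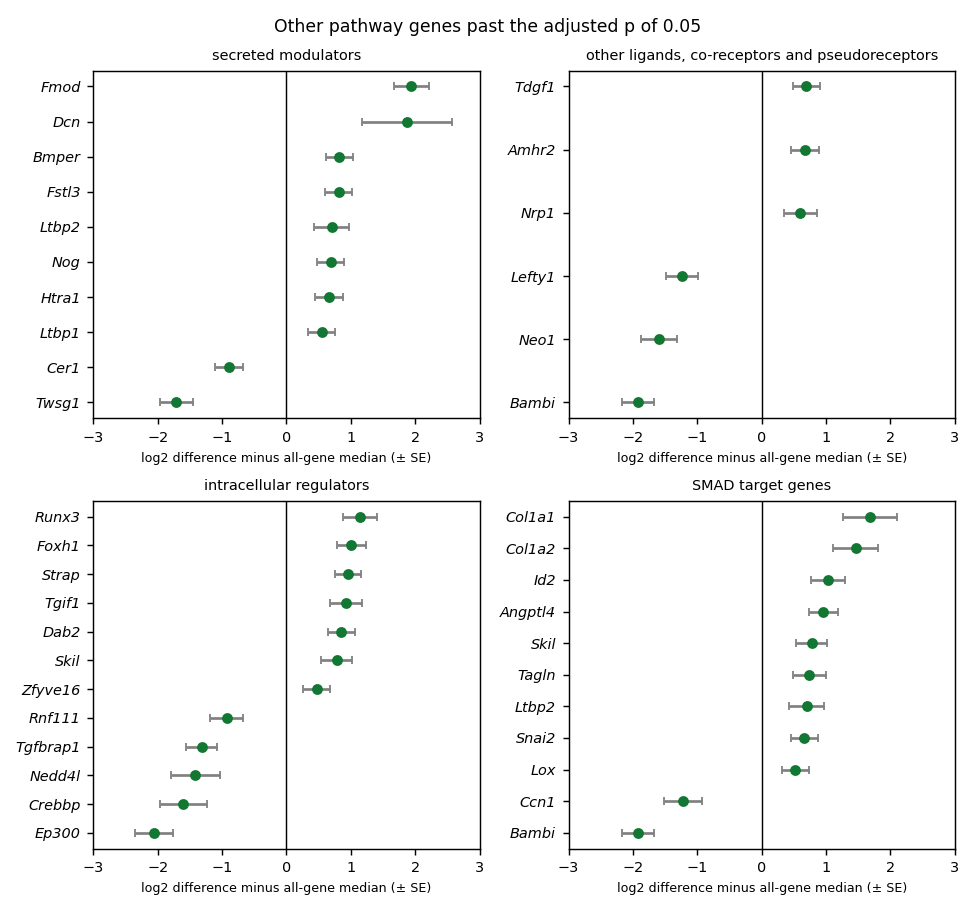
Log2 difference (labelled Gata6 KO minus control, minus the median of all genes, ± SE from limma) of the 36 other pathway genes past an adjusted p of 0.05, by list. Bambi, Skil and Ltbp2 appear in 2 panels. Fmod (1.94) and Dcn (1.87, with overlapping groups) lie at the upper end, and Ep300 (-2.06) and Bambi (-1.92) at the lower end. The Dcn call was lost in 11 of 18 alternatives, both other scalings among them (adjusted p up to 0.241).

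Of 31 measured secreted modulators 8 rose and 2 fell, beside 17.4% and 7.36% of all genes. Under both other scalings 4 rose and 2 fell. Of all genes 7.85% rose and 12.8% fell after centring, and 9.1% and 13% after repeated quantile normalization. Fmod, the collagen-binding proteoglycan fibromodulin that also holds TGF-beta in the matrix, went from 1.76 ± 0.11 (SD, n = 3) to 3.86 ± 0.51 (SD, n = 4), a relative change of 1.94 (SE 0.27, adjusted p = 9.00e-05). Twsg1 (twisted gastrulation), which binds BMPs together with chordin, changed by -1.71 (SE 0.25, adjusted p = 6.85e-04). The BMP-binding protein gene Bmper changed by 0.82 (SE 0.21), the follistatin-like activin antagonist Fstl3 by 0.81 (SE 0.21), noggin (Nog), which traps BMPs, by 0.69 (SE 0.21) and the protease gene Htra1 by 0.66 (SE 0.22). Bmper had a control mean of 1.13, near background, and was among the 40% of genes with the lowest mean. Nog did not pass without control array 1 (adjusted p = 0.0546), and Htra1 failed to pass in 5 of 18 alternatives, the other scalings included (adjusted p from 0.00783 to 0.0908).

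Among 14 other ligands, co-receptors and pseudoreceptors 3 rose and 3 fell, beside 17.4% and 7.36% of all genes. These became 1 and 4 after centring (7.85% and 12.8% of all genes) and 2 and 4 after repeated quantile normalization (9.1% and 13%). Bambi encodes a pseudoreceptor that lacks a kinase and blunts TGF-beta and BMP signalling, and its signal went from 5.46 ± 0.47 (SD, n = 3) to 3.71 ± 0.27 (SD, n = 4). The relative change of -1.92 (SE 0.25, adjusted p = 2.33e-04) was the largest in this list. Neo1 (neogenin), a receptor that also serves BMP co-receptors, changed by -1.59 (SE 0.28) and Lefty1, a Nodal antagonist, by -1.24 (SE 0.25). Tdgf1 (Cripto, a Nodal co-receptor), Amhr2 (the type II receptor of anti-Muellerian hormone) and Nrp1 (neuropilin) changed by 0.69 (SE 0.21), 0.67 (SE 0.22) and 0.60 (SE 0.26). Tdgf1 and Amhr2 had control means of 0.97 and 0.98, near background, and Nrp1 was lost in 8 of 18 alternatives, after centring among them (adjusted p = 0.221). Amhr2 was also lost after centring (adjusted p = 0.0591).

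Of 31 intracellular regulators 7 rose and 5 fell, beside 17.4% and 7.36% of all genes. The split was 5 and 6 after centring (7.85% and 12.8% of all genes) and 5 and 7 after repeated quantile normalization (9.1% and 13%). The acetyltransferase genes Ep300 and Crebbp, coactivators of SMADs and of many other factors, went from 5.90 ± 0.31 to 4.01 ± 0.60 and from 6.94 ± 0.39 to 5.51 ± 0.82 (SD, n = 3 and n = 4). Ep300 changed by -2.06 (SE 0.30, adjusted p = 4.72e-04) and Crebbp by -1.60 (SE 0.36, adjusted p = 0.0105), the latter call being lost without control array 1 (adjusted p = 0.0574). Crebbp was named after its values were seen. Tgif1, which had a smaller p than Crebbp, changed by 0.93 (SE 0.25, adjusted p = 0.0061). Tgfbrap1, a receptor-associated trafficking protein, changed by -1.32 (SE 0.24). The receptor-associated inhibitor Strap changed by 0.96 (SE 0.20), the Runt factor gene Runx3 by 1.14 (SE 0.26), the SMAD2 partner Foxh1 by 1.01 (SE 0.23) and the endocytic adaptor Dab2 by 0.85 (SE 0.21). Runx3 is also expressed by T cells, and 6 of 12 lymphoid markers rose on these arrays, whose part here was not tested.

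Of 32 genes known as SMAD targets 9 rose and 2 fell, beside 17.4% and 7.36% of all genes. The 2 that fell were Bambi (-1.92, SE 0.25), which had the smallest p of this list, and Ccn1 (-1.22, SE 0.30, adjusted p = 0.019). The groups of Ccn1 overlapped, and its call was lost in 3 of 18 alternatives (adjusted p up to 0.124). For the whole list the split was 4 and 4 after centring (7.85% and 12.8% of all genes) and 4 and 5 after repeated quantile normalization (9.1% and 13%). The collagen genes Col1a1 and Col1a2, induced by TGF-beta in fibroblasts and also listed as mesenchymal markers, changed by 1.69 (SE 0.42) and 1.46 (SE 0.35). Angptl4, a lipase inhibitor, changed by 0.96 (SE 0.23) and the neural crest and mesenchymal factor Snai2 by 0.66 (SE 0.21), the latter call being lost after centring (adjusted p = 0.0732). Id2, an inhibitor of differentiation induced by BMP, went from 3.93 ± 0.28 (SD, n = 3) to 5.12 ± 0.50 (SD, n = 4), a relative change of 1.03 (SE 0.27, adjusted p = 0.00544). That call was lost on the 5 arrays with high Xist (adjusted p = 0.0631). The related BMP targets Id1 and Id3, named after their values were seen, did not pass, with relative differences of 0.38 (SE 0.25, adjusted p = 0.119) and 0.13 (SE 0.25, adjusted p = 0.4).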

How the data were processed

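Gene expression was measured in mouse islets on 7 whole-transcript Affymetrix arrays, 3 control and 4 labelled Gata6 KO. The log2 signals were made by the authors with RMA (background correction, normalization and probe-set summary), per the submitters' processing notes, which also name Transcriptome Analysis Console. Base 2 is that of RMA, and the build and further steps are not given in the sources used here. Array medians still differed (1.72 to 1.78 on control arrays, 1.89 to 2.11 on the others). Of 41345 probe sets 23521 carried 1 gene symbol in the platform annotation, 1814 several and 16010 none. The probe set with the highest mean over the 7 arrays stood for a gene, which left 22180 genes.

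Groups were compared with limma 3.58.1 in R 4.3.3 (lmFit, eBayes with a mean-variance trend, no covariate), with Benjamini-Hochberg adjustment over all genes at 0.05. Exact two-sided permutation tests used the 35 splits of the arrays, so their smallest p is 0.0286. In simulated data for this comparison and 22180 genes, 100 genes were changed by 1 log2 unit and 100 by 2, and 43% and 91% of them were recovered. In the data 5486 genes passed, so the adjustment was stricter in the simulation. These shares therefore need not hold for the comparison itself.

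The pathway genes, lists and tests were chosen with earlier results of these data known. Values on every array are given for genes past the threshold, for a fixed set of pathway genes (Gdf15 is not analysed here) and for others close to the threshold, chosen after their values were seen. Up to 6 genes of each further list and 2 of each marker list were named by smallest p. Ppy and Dcn were named for their size, after their values were seen. Crebbp, Tgif1, Egfl7, Ccn1, Id1 and Id3 were named outside these rules, also after their values were seen. No batch is labelled, and the number of arrays limits the precision.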

Additional observations from a re-analysis of the deposited data

Results flagged for a closer look

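On single arrays labelled Gata6 KO 3 pathway genes stood far from the other 3 arrays of that group, by Dixon's test at the 95% level, which chance passes in about 5% of groups, and 50 genes were examined. Tgfb1 measured 4.20 on array 1 and between 3.03 and 3.17 on the others. Fst measured 1.97 on array 1 and between 2.74 and 2.89 on the others. Bmp10, whose signal is near background, measured 1.67 on array 4 and at most 1.41 on the others.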

How the results depend on the processing

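Grem1, Tgfb3, Tgfbr1 and Smad6 kept their direction and stayed past the threshold in all 18 alternative fits. The 9 pathway genes called became 5 at an adjusted p under 0.01 and 5 to 9 with each array left out in turn, 5 without control array 1. The other pathway genes called, 36, became 19 at 0.01 and 22 to 37 with an array left out, 22 without control array 1. All genes called, 5486, became 2797 at 0.01, 3337 on the 5 arrays with high Xist, and 3265 to 5613 with an array left out (3265 without control array 1, 3586 without control array 2). The pathway genes whose groups did not overlap numbered 16 to 21 with an array left out. The Gata6 difference passed as higher without the 40% of genes with the lowest mean (0.54), without the variance trend (0.54), with array weights (0.57), with the replicate block (0.62) and without arrays 3 and 4 labelled Gata6 KO (0.64). It ran from 0.46 to 0.62 with an array left out and passed without array 4 labelled Gata6 KO (adjusted p = 0.0333). After centring it was 0.29 (adjusted p = 0.39) and after repeated quantile normalization 0.34 (adjusted p = 0.236). The cause of these changes was not tested.

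Differences that were never called changed sign (unshifted log2 values). Tgfb1 (-0.01) became 0.05 with the replicate block, 0.01 on the arrays with high Xist, 0.24 without arrays 3 and 4 labelled Gata6 KO and -0.29 to 0.19 with an array left out. Centring and repeated quantile normalization gave -0.11 and -0.14 for Bmp4, -0.15 and -0.07 for Smad2, and -0.14 and -0.18 for Smad7. On the arrays with high Xist Bmp4 was -0.02, Bmp7 0.13 and Smad4 0.08. Without arrays 3 and 4 labelled Gata6 KO Bmp4 was -0.04 and Smad2 -0.06. Bmp7 ran from -0.45 to 0.06 and Smad7 from -0.04 to 0.26 with an array left out, and Smad7 was -0.03 with the replicate block.

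Same-numbered arrays did not deviate together (correlations 0.098, 0.004 and 0.115), and 2 of 3 controls were best matched by their own number, so the numbers were not taken as pairs. Array 4 labelled Gata6 KO has no control of its number, so a replicate block takes it out of the comparison. The differences are then those of the fit without array 4 (for Grem1 1.70 in both). With the replicate block 11 pathway genes passed, 10 higher and 1 lower. Bmp8a (adjusted p = 0.0687) and Bmp6 (adjusted p = 0.0955) were no longer called, and Gdf7, Inhba and Tgfbr2 were called as higher and Bmp1 as lower. Signals near background, among them those of 11 pathway genes of lowest mean, limit what could be detected.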

Other observations

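Probe sets of the pathway that stood outside the comparison had these values. The probe set shared by Gdf1 and Cers1, which lie on a common transcript, measured 2.53 ± 0.03 (SD) in the 3 controls and 2.51 ± 0.19 (SD) in the 4 other arrays. That shared by Bmpr2 and Gm20272 measured 2.47 ± 0.05 and 2.54 ± 0.49, and that shared by Paqr3 and Bmp2k 1.87 ± 0.26 and 1.94 ± 0.16. The second probe set of Gdf5, a cartilage growth factor, measured 1.02, 1.02 and 1.03 on the controls and 0.94, 1.12, 1.65 and 1.29 on the others, near background.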
